A study of Mus musculus with 12 samples.

Results

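The organic ion and drug transporters described here are the genes of the Slc22a, Slco, Slc47a and Abcc families, taken by gene symbol wherever a probe set was annotated to 1 symbol alone. This rule gave 50 of the 19936 genes on the array, made up of 23 Slc22a, 15 Slco, 10 Abcc and 2 Slc47a genes, each with 1 probe set. Of these, 41 passed the filter on dim genes and were tested. The other 9, which were 8 Slco genes and Slc22a14, a gene known from sperm, were not tested. Slco1a1, Abcc12 and Slc22a16 were tested, but their means in all 4 groups lay below 5.93. That is the 95th percentile of the means of 1027 olfactory receptor genes, taken as a rough mark of array background. Slc47a2 had a mean above this mark in 1 group alone, OVE-D6 (6.00).

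Whole frozen kidneys of mice aged 6 months were profiled on 12 Affymetrix arrays, 1 mouse per array and 3 per group. The OVE-D6 group was diabetic and homozygous for a deletion of D6, and the OVE group was diabetic and wild type for D6. The D6 group carried the deletion without diabetes, and the FVB group had neither. All 4 groups were of the FVB strain, and the deletion had been moved into FVB from C57BL/6 by repeated breeding before the cross to OVE. D6 is the protein of Ackr2, an atypical chemokine receptor that takes up inflammatory CC chemokines without signalling, and OVE mice are diabetic through a calmodulin transgene expressed in pancreatic beta cells. The study asked how loss of D6 alters renal gene expression in diabetes.

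The kidney clears organic anions, organic cations, drugs and toxins mainly in the proximal tubule, where transporters of the basolateral membrane take them up from blood and transporters of the apical membrane release them into urine. Slc22a genes encode organic anion, cation and carnitine carriers, Slco genes the organic anion transporting polypeptides, Slc47a genes proton-coupled cation exporters, and Abcc genes ATP-driven exporters and the sulfonylurea receptors of potassium channels. In rodent kidney several of these genes differ between the sexes and with androgen.

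In a principal component analysis OVE replicate 3 lay at 6.95 on the first axis, which held 35.9% of the variance, against 27.0 and 29.4 for the other OVE arrays and -15.1 to 5.17 for the remaining 9. OVE-D6 replicate 3 carried adrenal transcripts, with Cyp11b1 at 9.93 against 5.27 to 5.76 on the other 11 arrays. Ackr2 lay between 6.74 and 7.04 on all 12 arrays. It differed by -0.10 ± 0.08 (SE) between D6 and FVB, so it did not check the genotype labels, and where its probe set lies relative to the deletion is not given in the sources used here. The groups are therefore those of the labels throughout. Xist lay between 12.5 and 12.9 on every array, while the Y-linked genes Kdm5d, Eif2s3y and Uty stayed between 3.55 and 5.33. Lrp2, which encodes megalin of the proximal tubule, lay between 12.9 and 13.4.

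In diabetic kidneys with intact D6, a group of rodent organic anion transporters and the lipocalin-2 receptor gene Slc22a17 fell, and 1 organic anion transporting polypeptide, Slco4c1, rose. Between OVE and FVB kidneys 7 of the 41 tested transporters passed the limma test at an adjusted p of 0.05, 1 higher and 6 lower. That was 17.1% of them, against 7.28% of all 16480 genes tested, of which 4.9% were higher and 2.38% lower. At an unadjusted p under 0.05 there were 15 transporters, 36.6% against 24.1%. The median log2 difference was -0.13 over the transporters and -0.02 over all genes. Groups did not overlap for 13 transporters, 2 higher and 11 lower in OVE, which was 31.7% against 27.1% of all genes (13.6% higher and 13.5% lower). With only the OVE and FVB arrays in the fit the count was 4. The share of all genes in that fit is not given here, so this count is not set against it. Slc22a17, Slc22a26, Slc22a29 and Slc22a30 passed there, while Slco4c1, Slc22a22 and Slc22a27 did not (adjusted p = 0.0609, 0.0702 and 0.0723). In bulk tissue, fewer cells of a type and less RNA per cell cannot be told apart.

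The largest falls were in the Slc22a genes of the rodent branch of organic anion transporters. Of the 7 genes listed for it, Slc22a19, Slc22a26, Slc22a27, Slc22a28, Slc22a29 and Slc22a30 lie beside each other on chromosome 19 in the mouse annotation. They come ahead of Slc22a8 and Slc22a6, and Slc22a22 lies on chromosome 15. Slc22a28 was not analysed here, because its probe set was annotated to Slc22a28, Slc22a29 and Slc22a30 together. Cross-hybridisation between these related genes was not tested. Slc22a19 encodes mouse OAT5 and Slc22a22 the prostaglandin-specific carrier OAT-PG. The substrates of the remaining members are little characterised.

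The windows of 250 bases before the annotated start of the 5 chromosome 19 genes are shown because these genes sit together and 4 of them fell. They are from RefSeq on GRCm38.p6, all on the minus strand, 5′ to 3′. Capitals mark GTTAAC or GTTAAT on either strand, a half-site of HNF1, a factor of proximal tubule genes.
Slc22a19 at chr19:7711311-7711560: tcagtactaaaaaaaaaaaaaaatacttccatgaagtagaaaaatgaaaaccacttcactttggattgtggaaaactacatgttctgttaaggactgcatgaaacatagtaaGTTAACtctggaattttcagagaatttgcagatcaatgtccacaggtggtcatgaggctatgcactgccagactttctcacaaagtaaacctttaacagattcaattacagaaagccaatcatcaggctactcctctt
Slc22a26 at chr19:7802668-7802917: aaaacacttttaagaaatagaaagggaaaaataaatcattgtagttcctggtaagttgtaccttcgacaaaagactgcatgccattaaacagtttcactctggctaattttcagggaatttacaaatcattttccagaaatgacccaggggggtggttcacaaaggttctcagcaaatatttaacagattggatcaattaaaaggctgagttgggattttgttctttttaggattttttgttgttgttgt
Slc22a27 at chr19:7966028-7966277: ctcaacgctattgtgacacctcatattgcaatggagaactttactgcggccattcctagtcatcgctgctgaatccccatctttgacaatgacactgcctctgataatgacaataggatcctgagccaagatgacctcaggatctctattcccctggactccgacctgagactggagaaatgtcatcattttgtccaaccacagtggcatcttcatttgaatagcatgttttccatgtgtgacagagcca
Slc22a29 at chr19:8218901-8219150: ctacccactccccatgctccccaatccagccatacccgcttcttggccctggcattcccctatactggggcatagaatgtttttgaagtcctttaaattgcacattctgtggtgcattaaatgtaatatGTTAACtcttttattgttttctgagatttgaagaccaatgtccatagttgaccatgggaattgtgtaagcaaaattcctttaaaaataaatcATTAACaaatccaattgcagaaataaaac
Slc22a30 at chr19:8405106-8405355: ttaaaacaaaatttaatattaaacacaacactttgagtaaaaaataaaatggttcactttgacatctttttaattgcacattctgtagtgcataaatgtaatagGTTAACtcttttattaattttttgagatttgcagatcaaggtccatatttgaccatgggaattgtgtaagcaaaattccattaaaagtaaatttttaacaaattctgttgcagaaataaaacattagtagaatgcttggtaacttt

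The half-site occurred in 3 of these 5 windows, once each before Slc22a19 and Slc22a30 and 2 times before Slc22a29, and in 8.75% of the 32851 windows of this length in the table. It lay 138 bases before the start of Slc22a19 and 146 bases before that of Slc22a30. These letters were absent from the windows of Slc22a26 and Slc22a27. The windows of Slc22a29 and Slc22a30 were the most alike, with 70.0% of bases identical and a shared run of 31 bases, and those of Slc22a26 and Slc22a29 the least, at 48.0%. A match in letters is a description and not a binding site.

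Slc22a26 showed the widest separation. Its log2 values were 7.99, 7.92 and 8.18 in OVE kidneys, against 10.31, 9.40 and 9.36 in FVB kidneys. Every OVE value lay more than 1 log2 unit below every FVB value, a 3.16-fold lower mean (log2 -1.66 ± 0.30, SE, n = 3 per group, limma adjusted p = 0.00852). Slc22a29 had values of 8.94, 8.23 and 9.24 in OVE kidneys, against 10.06, 9.75 and 9.96 in FVB kidneys. It was 2.18-fold lower (log2 -1.12 ± 0.20, adjusted p = 0.00934), and its OVE values were spread more widely than its FVB values.

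Slc22a30 had values of 7.56, 7.25 and 7.49 in OVE kidneys, against 9.04, 8.55 and 8.26 in FVB kidneys, and was 2.27-fold lower (log2 -1.18 ± 0.27, adjusted p = 0.0241). Slc22a27 had values of 7.51, 6.81 and 7.94 in OVE kidneys, against 8.89, 8.32 and 8.41 in FVB kidneys, and was 2.17-fold lower (log2 -1.12 ± 0.24, adjusted p = 0.0184). In both genes the groups stood apart, with OVE replicate 3 the OVE array nearest to FVB for Slc22a27. Slc22a22 fell less, with values of 9.22, 9.25 and 9.54 in OVE kidneys, against 9.69, 9.81 and 9.84 in FVB kidneys (log2 -0.44 ± 0.11, adjusted p = 0.0283). Slc22a19 had values of 11.88, 11.75 and 11.63 in OVE kidneys, against 12.54, 12.15 and 12.08 in FVB kidneys. Its groups did not overlap either, but its difference of -0.50 ± 0.15 did not pass (adjusted p = 0.0618).

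Thus 5 of the 6 tested members of the branch fell and none rose in OVE against FVB. That was 83.3%, against 2.38% of all tested genes lower there. The median log2 difference was -1.12 over the 6 members and -0.02 over all tested genes. Slc22a26 and Slc22a29 passed with any 1 of the 12 arrays left out. Slc22a27 did not pass without FVB replicate 1 or OVE replicate 2, and Slc22a30 did not pass without FVB replicate 1 or 2 or OVE replicate 2, with adjusted p up to 0.0628 and 0.0912. Slc22a22 did not pass without FVB replicate 2 or 3 or OVE replicate 1 or 2, with adjusted p up to 0.104.

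**Figure D1:**
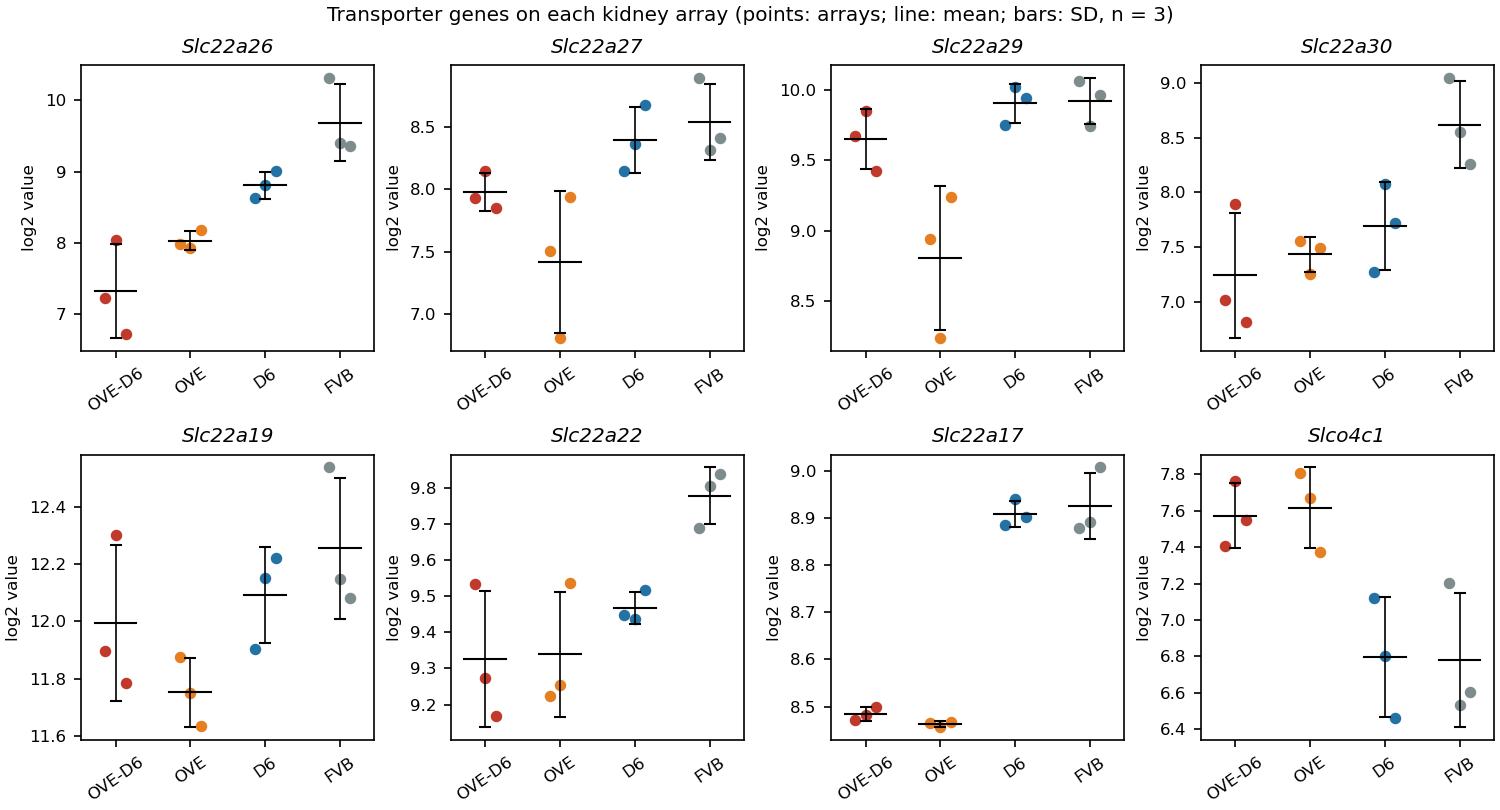
Log2 value of 8 transporter genes (vertical axes, each with its own range) on the 3 arrays of each group, with OVE-D6, OVE, D6 and FVB from left to right, points for arrays, lines for means and bars for the SD. Slc22a26 is lowest on the diabetic arrays, and Slc22a17 lies between 8.46 and 8.50 on all 6 diabetic arrays and between 8.88 and 9.01 on all 6 non-diabetic arrays.

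Slc22a17 was the tested transporter with the smallest standard error and the smallest adjusted p in OVE against FVB. It encodes the receptor for lipocalin-2, a protein that binds bacterial iron carriers and is released by injured tubules, and is not known as a drug carrier. Its values were 8.47, 8.46 and 8.47 in OVE kidneys, against 8.88, 8.89 and 9.01 in FVB kidneys, a 1.38-fold lower mean (log2 -0.46 ± 0.06, adjusted p = 0.00275). It passed in this comparison with any 1 of the 12 arrays left out.

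Slc22a17 also fell where D6 was deleted. Its values were 8.47, 8.48 and 8.50 in OVE-D6 kidneys, against 8.88, 8.94 and 8.90 in D6 kidneys (log2 -0.42 ± 0.06, adjusted p = 0.0156). The 2 effects of diabetes (OVE-D6 against D6, less OVE against FVB) differed by 0.04, with a 95% interval of -0.16 to 0.23. All 6 diabetic arrays lay within 8.46 to 8.50, below all 6 non-diabetic arrays. In OVE-D6 against D6 the call was lost whenever 1 of the 6 arrays of those groups was left out, with adjusted p up to 0.0767. Over all 12 arrays left out in turn, the log2 difference lay between -0.44 and -0.41.

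Its ligand gene Lcn2 did not follow the same pattern over the groups. Lcn2 had values of 10.23, 11.51 and 9.77 in OVE kidneys, against 6.74, 6.94 and 6.54 in FVB kidneys, and rose 13.6-fold (log2 3.76 ± 0.53, adjusted p = 0.00341). It had values of 7.08, 7.11 and 9.23 in OVE-D6 kidneys, against 7.63, 6.71 and 7.06 in D6 kidneys, and its difference there of 0.67 ± 0.53 did not pass (adjusted p = 0.741). On OVE-D6 replicates 1 and 2 Slc22a17 thus had the low value of the diabetic arrays while Lcn2 lay within the range of the non-diabetic ones. The difference between the diabetes effects on Lcn2 did not pass either (log2 -3.10 ± 0.75, adjusted p = 0.225).

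**Figure D2:**
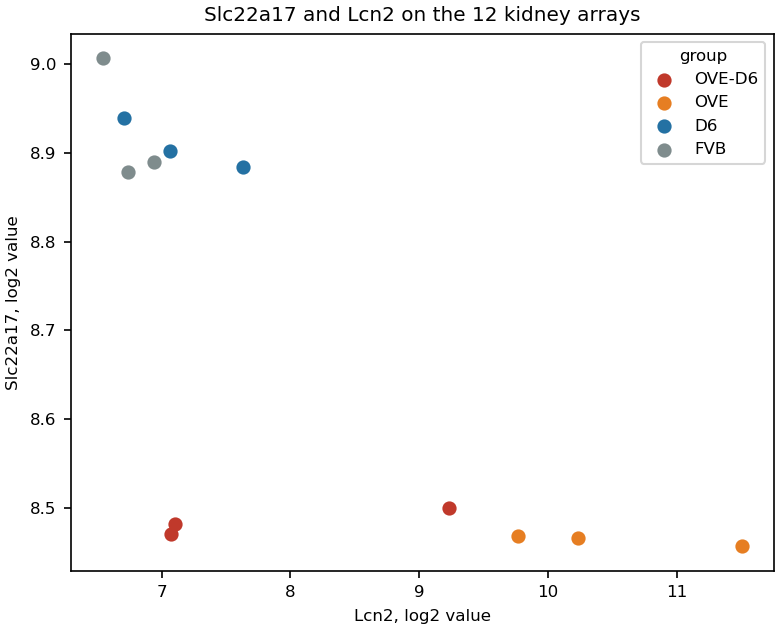
Log2 value of Slc22a17 (vertical axis) against log2 value of Lcn2 (horizontal axis), 1 point per array for the 12 kidneys, coloured by group. The 6 diabetic arrays lie between 8.46 and 8.50 for Slc22a17, while OVE-D6 replicates 1 and 2, at 7.08 and 7.11 for Lcn2, lie apart from the other 4 diabetic arrays along the Lcn2 axis.

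Slco4c1, a basolateral carrier of digoxin and thyroid hormone in the proximal tubule, was the only transporter that passed as higher in OVE kidneys. Its values were 7.81, 7.67 and 7.38 in OVE kidneys, against 7.20, 6.53 and 6.60 in FVB kidneys, a 1.79-fold higher mean (log2 0.84 ± 0.20, adjusted p = 0.0249). It did not pass without FVB replicate 2 or 3 or OVE replicate 1 or 2, with adjusted p up to 0.096. The difference in knockouts was 0.78 ± 0.20, with values of 7.41, 7.76 and 7.55 in OVE-D6 kidneys, against 7.12, 6.80 and 6.46 in D6 kidneys. That difference did not pass (adjusted p = 0.147), although the groups did not overlap in either genotype.

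Of the other 6 tested organic anion transporting polypeptides none passed in OVE against FVB, with 2 at an unadjusted limma p under 0.05. Over all tested genes 7.28% passed and 24.1% had such a p. Slco2a1, the prostaglandin transporter, had values of 10.10, 10.24 and 9.73 in OVE kidneys, against 9.71, 9.44 and 9.66 in FVB kidneys (log2 0.42 ± 0.12, adjusted p = 0.0589). Slco3a1 had values of 10.24, 10.56 and 10.09 in OVE kidneys, against 10.13, 9.84 and 9.76 in FVB kidneys (log2 0.39 ± 0.12, adjusted p = 0.0737). OVE replicate 3, the array that stood apart, had the lowest OVE value of both. Without it Slco2a1 (log2 0.57), Slco3a1 (log2 0.49), Slco2b1 (log2 0.32) and Slc22a23 (log2 -0.62) passed as well, giving 11 transporters. The count was 4 without FVB replicate 2 and 3 without OVE replicate 2. Shares of all genes in these fits are not given here, so the counts are not set against them. Slco2b1, a steroid sulfate carrier, differed by 0.21 ± 0.10 (adjusted p = 0.22) on all arrays, and Slco4a1, a thyroid hormone carrier, by 0.23 ± 0.30. The median of the 7 tested polypeptides was 0.23.

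The well characterised drug carriers did not pass in OVE against FVB. Slc22a6 and Slc22a8, which encode the basolateral organic anion uptake carriers OAT1 and OAT3, differed by log2 -0.05 (95% interval -0.38 to 0.28) and -0.16 (-0.46 to 0.13). They lie beside the chromosome 19 genes that fell. Slc22a12, the urate carrier, differed by -0.13 (-0.41 to 0.15). Slc22a7, which encodes OAT2, had values of 10.00, 9.42 and 9.67 in OVE kidneys, against 10.82, 10.03 and 10.11 in FVB kidneys. Its groups did not overlap, but its difference of -0.62 ± 0.24 did not pass (adjusted p = 0.131). None of the 6 genes of this list passed, with a median of -0.09. An unadjusted limma p under 0.05 was found for 1, 16.7% against 24.1% of all tested genes.

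None of the 3 cation carriers, 4 carnitine and ergothioneine carriers, 8 multidrug resistance associated proteins and 2 sulfonylurea receptors tested passed in OVE against FVB with limma. At an unadjusted p under 0.05 there were 0, 1, 1 and 1 of them in that order. Over all tested genes 24.1% had such a p and 7.28% passed, so lists this short could hold no call at that share. Slc22a2, the basolateral cation carrier OCT2, differed by log2 -0.10 (95% interval -0.40 to 0.20), and Slc47a1, its apical partner MATE1, by -0.14 (-0.29 to 0.00181). The carnitine carrier gene Slc22a5 differed by -0.15 (-0.46 to 0.17), and Slc22a4, the ergothioneine carrier, by -0.27 ± 0.10 (adjusted p = 0.128). Among the multidrug resistance associated proteins, Abcc1 had a difference of 0.22 ± 0.09 (adjusted p = 0.174). The apical exporters Abcc2 and Abcc4 differed by 0.12 (-0.16 to 0.40) and -0.06 (-0.46 to 0.34). The sulfonylurea receptor genes Abcc8 and Abcc9 differed by -0.13 ± 0.07 and -0.28 ± 0.11 and did not pass. Outside these lists, Slc22a15 had an estimate of 0.24 ± 0.10 (adjusted p = 0.174) and Slc22a23 one of -0.36 ± 0.18 (adjusted p = 0.238), each with overlapping groups.

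**Figure D3:**
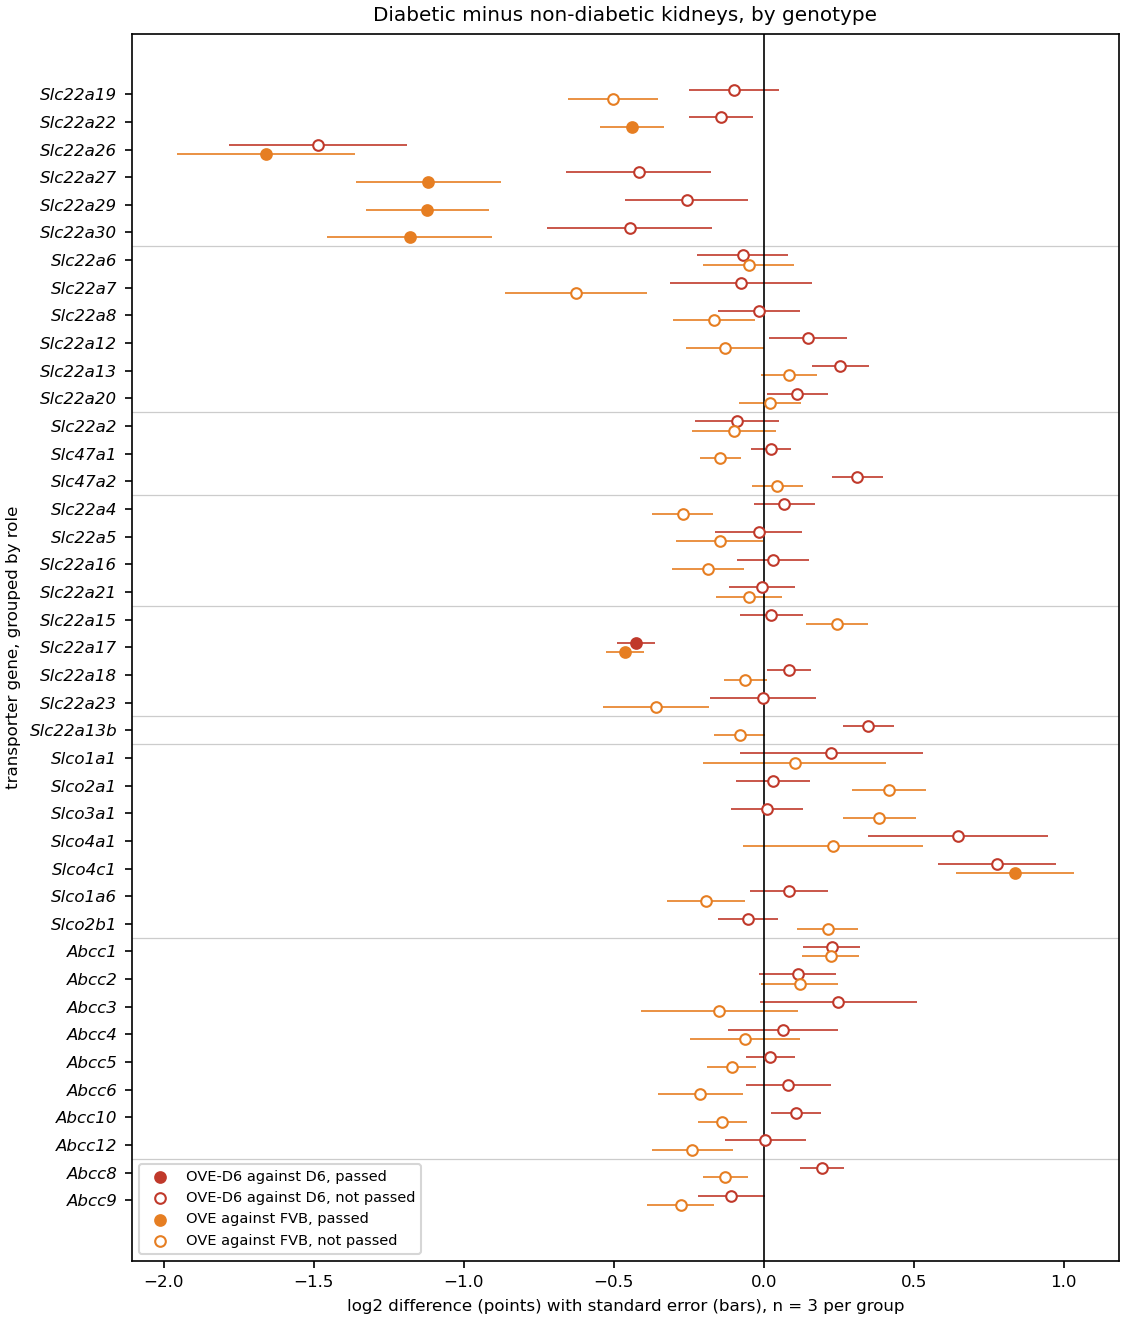
Log2 difference (horizontal axis) of the 41 tested transporters, grouped by role down the page, for OVE-D6 against D6 and OVE against FVB, with points for estimates from 3 arrays a group, bars for the standard error and filled points for an adjusted p under 0.05. The filled points are 7 in OVE against FVB and 1, Slc22a17, in OVE-D6 against D6.

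In OVE-D6 against D6, Slc22a17 was the 1 transporter that passed, and with only the arrays of these groups in the fit it did not (adjusted p = 0.0559). The 1 call of 41 was 2.44%, against 0.285% of all tested genes, of which 0.182% were higher and 0.103% lower. At an unadjusted p under 0.05 there were 8 transporters, 19.5% against 9.98%. Groups did not overlap for 6 higher and 3 lower transporters, 22% against 16.4% of all genes (7.72% higher and 8.68% lower). The estimate was positive for 25 of the 41. Besides Slco4c1, the groups that stood apart as higher in OVE-D6 were those of Slc22a13b, an annotated pseudogene (log2 0.35 ± 0.09, adjusted p = 0.141), Slc47a2 (0.31 ± 0.08), Slc22a13 (0.26 ± 0.09), Abcc1 (0.23 ± 0.09) and Abcc8 (0.19 ± 0.07). None of them passed, and neither did Slco4a1, with an overlapping 0.65 ± 0.30 (adjusted p = 0.507). The mean of Slc47a2 in D6 kidneys, 5.68, lay below the mark of array background.

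Slc22a26 had values of 7.22, 8.03 and 6.72 in OVE-D6 kidneys, against 8.62, 8.81 and 9.00 in D6 kidneys. Every OVE-D6 value lay below every D6 value, but the difference of -1.49 ± 0.30 did not pass (adjusted p = 0.0703). It passed without OVE-D6 replicate 2 (adjusted p = 0.0155) and without FVB replicate 1 (adjusted p = 0.033). Without OVE-D6 replicate 3, the array with adrenal transcripts and the lowest Slc22a26 value, the difference was -1.18 (adjusted p = 0.269).

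The other chromosome 19 genes did not pass in knockouts. Slc22a29 had values of 9.68, 9.85 and 9.43 in OVE-D6 kidneys, against 9.76, 10.02 and 9.95 in D6 kidneys, so the groups overlapped (log2 -0.26 ± 0.20). Slc22a27 had values of 7.93, 8.15 and 7.85 in OVE-D6 kidneys, against 8.15, 8.36 and 8.67 in D6 kidneys (log2 -0.42 ± 0.24). Slc22a30 had values of 7.03, 7.89 and 6.82 in OVE-D6 kidneys, against 7.28, 8.08 and 7.72 in D6 kidneys. Its estimate of -0.45 ± 0.27 was -0.23 without OVE-D6 replicate 3. All 6 tested members of the branch had negative estimates with a median of -0.34.

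Averaged over genotype, diabetes again moved 7 transporters, 1 higher and 6 lower, 17.1% against 7.65% of all tested genes (4.49% higher and 3.16% lower). This contrast uses the arrays of both comparisons above, so its calls add no separate evidence. Slc22a26 was 2.97-fold lower (log2 -1.57 ± 0.21, adjusted p = 0.0016) and Slco4c1 1.75-fold higher (log2 0.81 ± 0.14, adjusted p = 0.00604). Slc22a17 fell by 0.44 (adjusted p = 0.000284), Slc22a30 by 0.81, Slc22a27 by 0.77, Slc22a29 by 0.69 and Slc22a22 by 0.29. Over the 12 arrays left out in turn, Slc22a17, Slc22a26, Slc22a29 and Slco4c1 passed in 12 of 12, Slc22a27 in 11, Slc22a30 in 6 and Slc22a22 in 3. Without OVE-D6 replicate 3 the count was 4, and there Slc22a27, Slc22a30 and Slc22a22 did not pass (adjusted p = 0.0521, 0.0653 and 0.0892). The share of all genes in that fit is not given here, so this count is not set against it.

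The interaction asked whether the effect of diabetes differed between the genotypes. No transporter passed it with limma, and no gene of the 16480 did (0%). At an unadjusted p under 0.05 there were 7 transporters, 17.1% against 9.99% of all tested genes. The estimate was positive for 34 of 41 transporters and for 8508 of all 16480 tested genes, with medians of 0.17 and 0.01. Among the branch members it was 0.86 for Slc22a29 (95% interval 0.24 to 1.49, adjusted p = 0.354), 0.73 for Slc22a30 (-0.11 to 1.58), 0.70 for Slc22a27 (-0.04 to 1.44) and 0.17 for Slc22a26 (-0.74 to 1.08). With intervals this wide, a difference between the genotypes was not shown for any of them after adjustment.

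Between the diabetic groups, whose genotype rests on the labels, no transporter passed in OVE-D6 against OVE, against 0.231% of all tested genes. At an unadjusted limma p under 0.05 there were 14 of 41, 34.1% against 14.8% of all tested genes, and the median difference was 0.08 against 0.01. Groups did not overlap for 10 transporters higher and 1 lower in OVE-D6, 26.8% against 17.6% of all genes (9.37% higher and 8.24% lower). Slc22a29 had the highest estimate, with OVE-D6 values of 9.43 to 9.85 above OVE values of 8.23 to 9.24 (log2 0.85 ± 0.20, adjusted p = 0.109). Slc22a7 differed by 0.57 ± 0.24, Slc22a27 by 0.56 ± 0.24, Slc22a23 by 0.39 ± 0.18 and Slc22a13b by 0.30 ± 0.09. The lowest estimates were Slc22a26 at -0.70 ± 0.30, Slco3a1 at -0.43 ± 0.12 and Slc22a15 at -0.29 ± 0.10.

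This comparison depended on OVE replicate 3. Without it 4 transporters passed. The count over all genes in that fit is not given here, so the 4 transporters have no share of all genes beside them. They were Slc22a29 (log2 1.06, adjusted p = 0.00787), Slc22a23 (log2 0.65, adjusted p = 0.00744), Slco2b1 (log2 -0.37, adjusted p = 0.0439) and Slco3a1 (log2 -0.53, adjusted p = 0.0338). Slc22a29 and Slc22a27 had their highest OVE value on that array, and Slc22a23 had 11.89 there, against 11.12 and 11.13 on the other OVE arrays. The Slc22a23 values in OVE-D6 kidneys, 11.88, 11.64 and 11.80, lay above those 2 arrays but below OVE replicate 3. With all OVE arrays the Slc22a23 groups overlapped, so the separation for that gene came from leaving that array out.

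Without diabetes, no transporter passed in D6 against FVB, against 0.0121% of all tested genes. At an unadjusted limma p under 0.05 there were 3, 7.32% against 3.82%. Groups did not overlap for 2 higher and 6 lower transporters, 19.5% against 9.79% of all tested genes (5.59% higher and 4.2% lower). Slc22a30 differed by -0.92 (95% interval -1.52 to -0.33), Slc22a26 by -0.88 (-1.52 to -0.23) and Slc22a22 by -0.31 (-0.54 to -0.08), each with an adjusted p of 1. Slc22a26 had values of 8.62, 8.81 and 9.00 in D6 kidneys, against 10.31, 9.40 and 9.36 in FVB kidneys, with FVB replicate 1 the highest array. Slc22a27 and Slc22a29 had overlapping groups. Slco4a1 differed by -0.44 (-1.10 to 0.21) and Slco2a1 by 0.26 (-0.01 to 0.53), both with an adjusted p of 1. The knockout effect averaged over disease state also gave no call, against 0.0303% of all tested genes, with 6 transporters, 14.6% against 8.28%, at an unadjusted limma p under 0.05. Its estimate was -0.79 ± 0.21 for Slc22a26, -0.56 ± 0.19 for Slc22a30 and 0.41 ± 0.14 for Slc22a29.

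**Figure D4:**
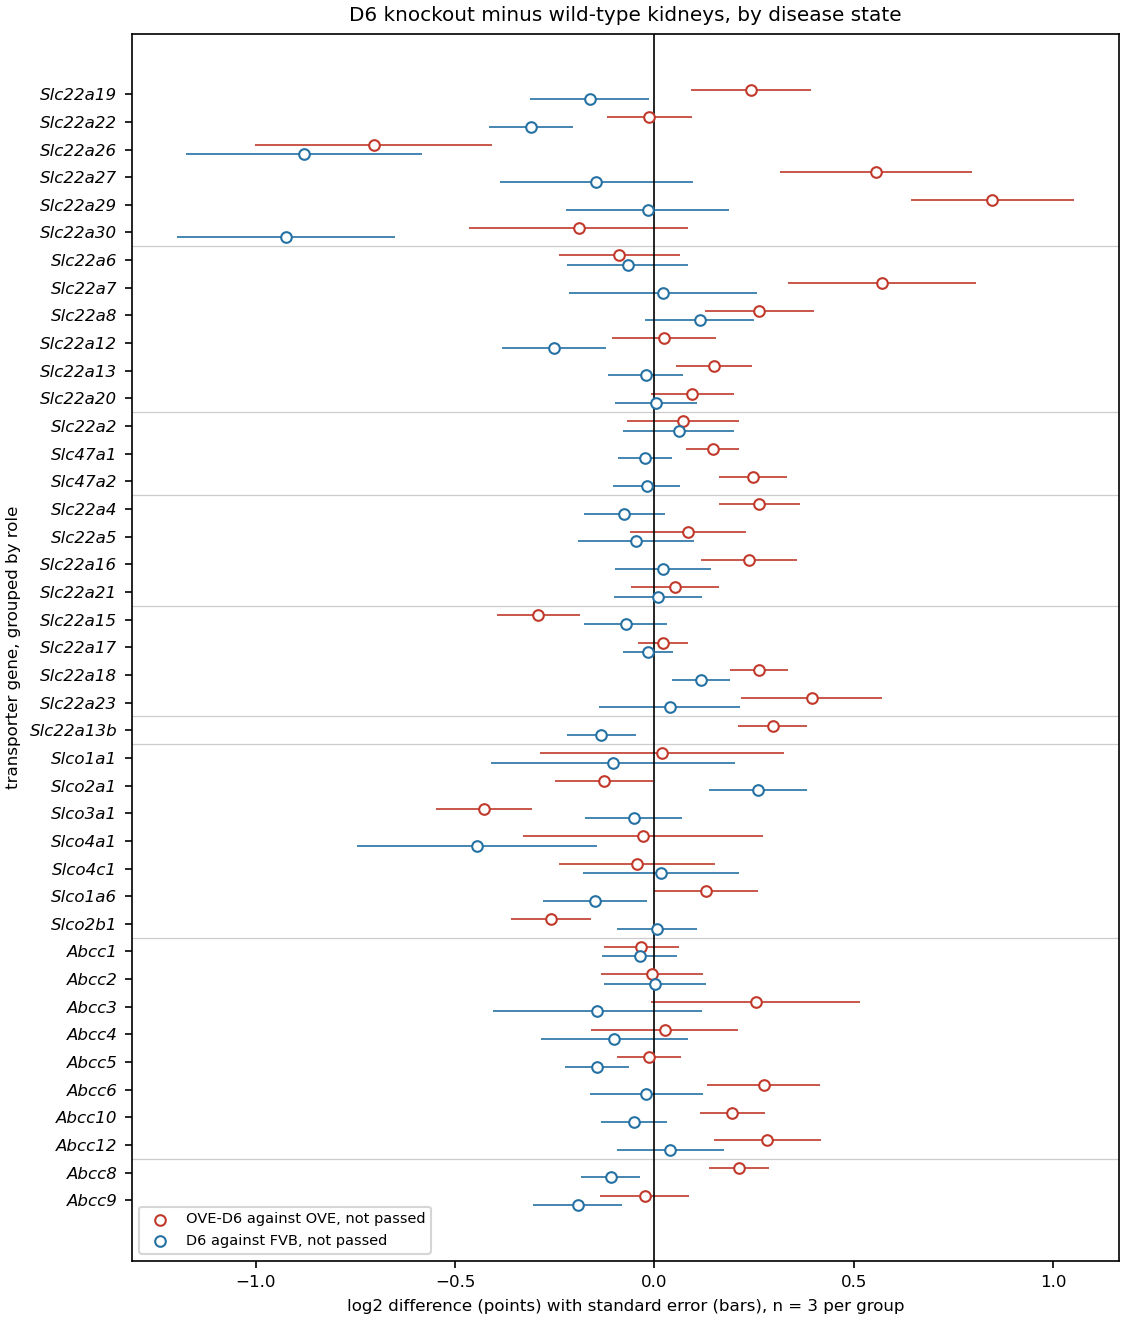
Log2 difference (horizontal axis) of the 41 tested transporters, grouped by role down the page, for OVE-D6 against OVE and D6 against FVB, with points for estimates from 3 arrays a group and bars for the standard error. All points are open because none passed, with Slc22a29 at 0.85 highest in OVE-D6 against OVE and Slc22a30 at -0.92 lowest in D6 against FVB.

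Slc22a13 and Slc22a14 lie near Ackr2 on chromosome 9, with 37 and 38 protein-coding genes between each of them and Ackr2. Slc22a13, a nicotinate and urate carrier in human, differed by 0.15 ± 0.09 in OVE-D6 against OVE and by -0.02 ± 0.09 in D6 against FVB. It passed in neither comparison. Slc22a13b, on the same chromosome, had values of 8.74, 8.69 and 8.89 in OVE-D6 kidneys, against 8.53, 8.42 and 8.49 in OVE kidneys. These groups did not overlap, but the difference of 0.30 ± 0.09 did not pass (adjusted p = 0.159), and in D6 against FVB it was -0.13 ± 0.09 with overlapping groups. Slc22a14 was among the genes not tested.

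Few other genes of the pathway passed in OVE against FVB. Of 22 tested partner transporters and scaffold genes, 1 fell and none rose in OVE against FVB, 4.55% against 7.28% of all tested genes. The gene that fell was Abcb1a, a P-glycoprotein gene that exports drugs. Its values were 7.67, 7.68 and 7.83 in OVE kidneys, against 8.24, 8.53 and 8.35 in FVB kidneys (log2 -0.65 ± 0.13, adjusted p = 0.0155). Averaged over genotype Abcb1a fell by 0.47 and Slc15a1, a peptide carrier, was higher by 0.38 (adjusted p = 0.0134 and 0.0229). These were 9.09% of the 22 genes, against 7.65% of all tested genes. Of 11 tested transcriptional regulators none passed in OVE against FVB. At an unadjusted limma p under 0.05 there were 2, 18.2% against 24.1% of all tested genes. Averaged over genotype Hnf4a, a regulator of proximal tubule genes, fell by 0.20 (adjusted p = 0.0319) and Cebpb was higher by 0.31 (adjusted p = 0.0149). These were 18.2% of the 11 regulators, against 7.65% of all tested genes.

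In OVE against FVB, markers of other cells and of the tubule also passed the test. Over all tested genes 4.9% were higher and 2.38% lower there, and 24.1% had an unadjusted limma p under 0.05. Of 12 proximal tubule markers 3 fell in OVE against FVB, namely Lrp2 (log2 -0.35), Kap (log2 -1.13) and Slc7a13 (log2 -0.75), and none rose. The log2 of their summed level was 16.17 to 16.28 in OVE-D6, 16.01 to 16.16 in OVE, 16.33 to 16.38 in D6 and 16.27 to 16.40 in FVB. Of 9 macrophage markers 8 rose in OVE against FVB, and their summed level was 11.30 to 11.61 in OVE-D6, 11.85 to 13.08 in OVE, 11.44 to 11.65 in D6 and 10.96 to 11.36 in FVB. All 5 tubular injury markers and 3 of 6 pericyte and smooth muscle markers rose, and none of 7 endothelial markers passed, with 1 at an unadjusted limma p under 0.05. Of 10 androgen-responsive kidney genes, a list that also holds Kap, 3 rose and 2 fell. In OVE-D6 against D6 none of the proximal tubule, macrophage, tubular injury, pericyte and smooth muscle, or endothelial markers passed with limma. At an unadjusted p under 0.05 there were 1, 0, 0, 3 and 1 of them in that order, with 9.98% of all tested genes. Of the androgen-responsive genes 3 rose there and none fell, against 0.182% higher and 0.103% lower over all tested genes. Between the diabetic groups, 2 of 9 macrophage and 2 of 5 tubular injury markers were lower in OVE-D6 than in OVE. Over all tested genes 0.231% passed there. None of the proximal tubule, pericyte and smooth muscle, or endothelial markers did. At an unadjusted limma p under 0.05 there were 4, 3 and 0 of them in that order, with 14.8% of all tested genes. The part of these shifts in the transporter differences was not tested.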

How the data were processed

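The table the authors deposited held 1 log2 value per probe set and array, and the method that made them is not given in the sources used here. Array medians lay between 6.84 and 6.93, and no further scaling was applied. Of 35556 probe sets, 21789 had 1 symbol, updated through RefSeq's mouse table, and the highest-mean probe set stood for a gene. The 16480 genes above their array's 25th percentile on at least 3 arrays were tested with limma 3.58.1 in R 4.3.3: a group-means model over all 12 arrays, 7 contrasts, eBayes and Benjamini-Hochberg adjustment over all tested genes, at 0.05. The number of arrays limits the precision. The members and gene lists were chosen with earlier results of these data known. Transporters that passed were named with every array's value, and those with the most extreme estimates (up to 6 each way in OVE against FVB and OVE-D6 against OVE, up to 3 elsewhere) could be named as not passing, as could others by role. The 12 alternatives changed the filter, scaling, probe set, variance model, arrays fitted, weights, replicate block and threshold, and each of the 12 arrays was left out. Replicate numbers were not used to pair the samples in the main fit. Correlations of same-numbered arrays ran from -0.25 to 0.12, with 2 of 18 over 0.1. They were not compared with those of differently numbered arrays, so pairing was not excluded. The fit was tested on simulated data. Promoter windows were searched and aligned with Python 3.11.15 and Biopython 1.88. Figures used pandas 2.3.3 and matplotlib 3.10.9.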

Additional observations from a re-analysis of the deposited data

How the results depend on the processing

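Of the 7 counts of transporters that passed, those for OVE-D6 against OVE, D6 against FVB, the averaged knockout effect and the interaction stayed at 0 under every alternative run other than leaving out an array. With only the groups compared in the fit, the count was 4 in OVE against FVB and 0 in OVE-D6 against D6. This alternative could not be run for the averaged contrasts or the interaction, which need 4 groups. Array weights gave 2 in OVE-D6 against D6, with Slc22a26 added. At an adjusted p under 0.01 the counts were 3 in OVE against FVB, 0 in OVE-D6 against D6 and 3 for diabetes averaged over genotype, and at an adjusted p under 0.1 OVE-D6 against D6 gave 2. Leaving out 1 array at a time gave 3 to 11 in OVE against FVB, 0 to 2 in OVE-D6 against D6, 0 to 4 in OVE-D6 against OVE, 4 to 9 for averaged diabetes and 0 in the other 3. With the replicate number as a block the counts were 7 in OVE against FVB, 1 in OVE-D6 against D6, 6 for averaged diabetes, where Slc22a22 was lost (adjusted p = 0.0591), and 0 in the other 4. These counts are of transporters alone, and shares of all genes under the same alternatives are not given here. Of 323 values for single genes under the alternatives, 40 no longer passed and none reversed. The cause of these changes was not tested.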
